A study of Mus musculus with 40 samples.

Results

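Integrins are the adhesion receptors with which T cells hold on to vessel walls, epithelium and matrix, and 10 integrin chain genes that T cells use were read in regulatory T cells (Treg) and conventional CD4+ T cells (Tconv) of 10 mouse sources. The genes were chosen by name, with earlier results of these data known, as Itgae, Itgb7, Itga4, Itgb1, Itgal, Itgb2, Itga1, Itga6, Itgav and Itgb3. All 10 were found by symbol among the 55421 genes of the deposited count table. Treg were sorted as CD4+ cells that carried Thy1.1, expressed from Foxp3, on their surface, and Tconv as CD4+ cells without it. All cells came from perfused mice labelled WT that carried the reporter, and the tissues were digested before sorting. The Treg libraries came from kidney, liver, lung, pancreas, small-intestinal intraepithelial lymphocytes (IEL), small-intestinal lamina propria lymphocytes (LPL), Peyer's patch, blood, spleen and lymph node, with 3 libraries of 2000 sorted cells per source. Each of these sources also gave 1 Tconv library. In the text, organ means kidney, liver, lung or pancreas, gut wall means IEL or LPL, tissue means these 6 together, and lymphoid means blood, spleen and lymph node, with Peyer's patch kept apart.

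An integrin is a pair of one alpha and one beta chain, and a chain reaches the cell surface only when it has paired. The pairing fixes the ligand. The beta 7 chain with alpha E binds E-cadherin on epithelial cells, and with alpha 4 it binds MAdCAM-1 on vessels of the gut. The beta 1 chain pairs with many alpha chains and binds matrix proteins or, with alpha 4, VCAM-1. The beta 2 chain with alpha L forms LFA-1, which binds ICAM molecules and is needed for T cell adhesion in general. The alpha V chain with a beta 3 or beta 8 partner binds RGD-containing proteins, and with beta 8 it activates latent TGF-beta. The values here are RNA levels, and surface protein was not measured.

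Total counts per library ran from 12197980 to 28823493. Levels are given as CPM, read counts scaled to a common library size after TMM normalisation, and counts of 3′ ends are not divided by gene length, so levels are compared between sources and not between genes. T cell markers such as Trac, Lck and Cd6 were present in every library, and the sum of the 10 T cell markers ran from 7306 to 11741.5 CPM in Treg and from 7237 to 11362 CPM in Tconv. Foxp3 ran from 68.4 to 306 CPM in the 30 Treg libraries, against 0.158 to 6.66 CPM in the 10 Tconv libraries. Some libraries carried RNA of other cells. The 3 pancreas Treg libraries had 28556 to 146170 CPM of acinar markers, with the most in replicate 6, and pancreas Tconv had 9947 CPM. Kidney Treg replicate 1 had 2475 CPM of tubule markers, and lung Treg replicate 5 had 1874 CPM of myeloid markers. Of intestinal epithelial markers, a gut wall Treg library, LPL replicate 1, had 2563 CPM and IEL Tconv had 1675 CPM. Whether libraries came from separate mice is not in the labels, so all errors and p-values given here cover the variation among these samples, which may be partly technical. In bulk samples, fewer cells of a type and less RNA per cell cannot be told apart.

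Itgae (ENSMUSG00000005947.11, mm10 chr11:73090583-73147446, plus strand) encodes the alpha E chain (CD103), the epithelium-binding partner of beta 7, and was highest in the gut. It stood at 1455, 1623 and 1379 CPM in the 3 IEL Treg libraries, at 647, 847 and 937 CPM in LPL Treg and at 499, 468 and 469.6 CPM in Peyer's patch Treg. In liver Treg it stood at 247, 327 and 361 CPM, in kidney Treg at 201, 338 and 338 CPM, in pancreas Treg at 307, 262 and 249 CPM and in lung Treg at 257, 207 and 148 CPM. Lymph node Treg had 222, 203 and 319 CPM, spleen Treg 156, 161 and 111 CPM and blood Treg 180.2, 137 and 96.2 CPM. The 3 gut sources did not overlap with each other or with any other source, while the organs overlapped with lymph node. The order of source means was IEL, LPL, Peyer's patch, liver, kidney, pancreas, lymph node, lung, spleen and blood, and from liver downwards no neighbours were separated by a gap between their libraries. The highest source mean was 10.8 times the lowest.

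**Figure D1:**
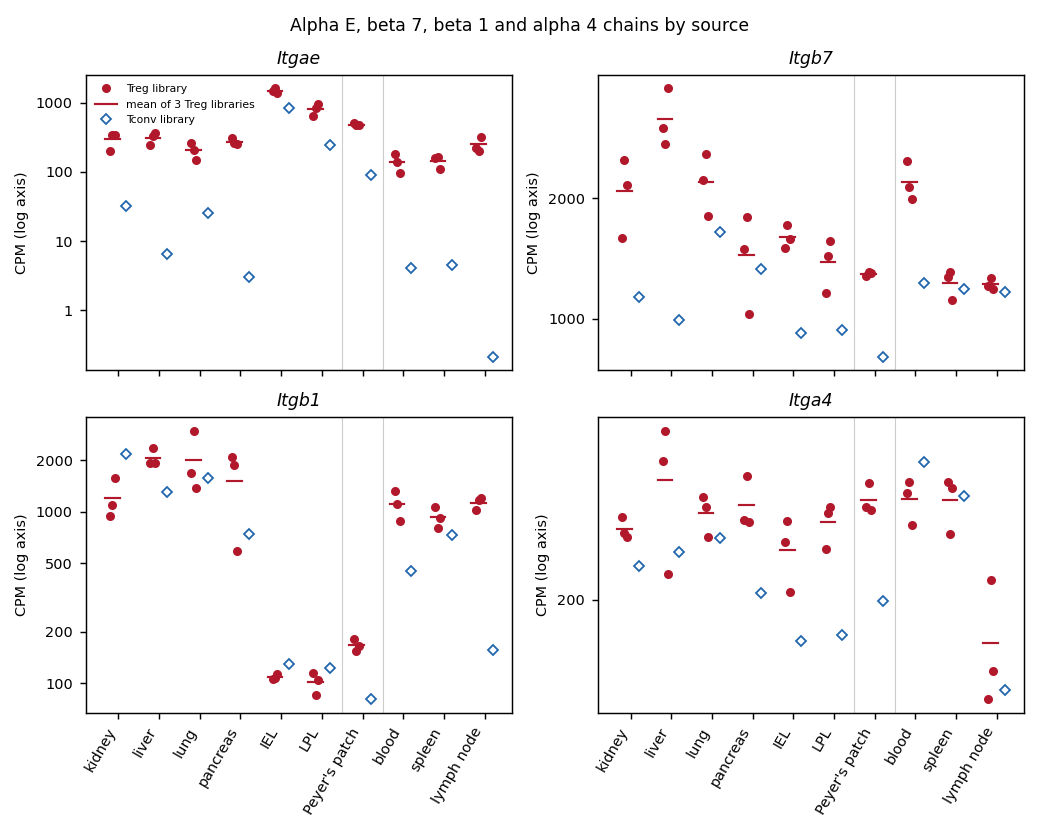
Normalised CPM (log axis) of Itgae, Itgb7, Itgb1 and Itga4 in each library by source. Red points are the 3 Treg libraries with their mean as a line and open blue diamonds the single Tconv library. Itgae is highest in IEL, LPL and Peyer's patch, where Itgb1 of Treg lies between 85.2 and 180.4 CPM, below every Treg library of the other 7 sources.

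Against lymphoid Treg, Itgae rose in tissue Treg by a log2 fold change of 1.35 ± 0.13 (SE, edgeR quasi-likelihood test, adjusted p = 1.9e-07), with 563 ± 478 CPM in tissue Treg and 176 ± 67.0 CPM in lymphoid Treg (SD, n = 18 and 9). In this comparison 7 of the 10 members passed, 5 higher and 2 lower, where 21.8% of the 17909 genes tested were called at an adjusted p below 0.05 (11.9% higher and 9.98% lower). The median log2 fold change of the 10 members was 0.30, against 0.03 over all genes tested. This test takes the libraries of a source as replicates. With counts summed per source, so that the source is the replicate, 0 members and 0 of 18000 genes were called. Against organ Treg, Itgae rose in gut wall Treg by 2.06 ± 0.14 (adjusted p = 9.4e-11). In single organs the change against lymphoid Treg was smaller, at 0.88 ± 0.19 in liver, 0.79 ± 0.19 in kidney and 0.68 ± 0.19 in pancreas, and lung did not pass (0.30 ± 0.20, adjusted p = 0.351). The kidney call was lost without kidney Treg replicate 3 or 5 (0.67 each), the liver call without liver Treg replicate 3 or 4 (0.84 and 0.76), and the pancreas call without pancreas Treg replicate 1 or 5 (0.59 and 0.71). With lymph node as the only lymphoid source the change was 0.34 in liver, 0.25 in kidney and 0.14 in pancreas, and none of the 3 passed.

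The beta 7 chain gene Itgb7 (ENSMUSG00000001281.10, chr15:102215995-102231944, minus strand) did not follow its partner. It stood at 2989, 2722 and 3769 CPM in liver Treg, at 2475, 2133 and 1992 CPM in blood Treg, at 2218, 2574 and 1805 CPM in lung Treg and at 1588, 2494 and 2154 CPM in kidney Treg. IEL Treg had 1503, 1710.2 and 1582 CPM, LPL Treg 1158, 1430.1 and 1565 CPM and Peyer's patch Treg 1280.2, 1309 and 1298 CPM. Pancreas Treg had 1492, 1793 and 1028 CPM, spleen Treg 1269, 1308 and 1111 CPM and lymph node Treg 1206, 1263 and 1183 CPM. Liver was the only source whose libraries all lay above those of the source ranked next, blood, and the highest source mean was 2.60 times the lowest. Blood Treg lay above spleen and lymph node Treg in all 3 libraries.

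Itgb7 rose in tissue Treg by 0.36 ± 0.09 (adjusted p = 0.0070), with single calls in liver (1.09 ± 0.14), lung (0.60 ± 0.15) and kidney (0.49 ± 0.15). The lymphoid side held blood with its high level, and against blood alone no such call remained, at -0.20 in tissue, 0.53 in liver, 0.04 in lung and -0.072 in kidney. In gut wall Treg, Itgb7 was lower than in organ Treg by a log2 fold change of -0.50 ± 0.12 (adjusted p = 0.0024). The changes against lymphoid Treg were 0.13 ± 0.15 in IEL and -0.08 ± 0.15 in LPL, neither past the threshold. In IEL Treg, the source with the most Itgae RNA, Itgb7 lay above every spleen and lymph node Treg library and below every blood Treg library. The small IEL change thus holds against a lymphoid mean that includes blood. The kidney call was lost without kidney Treg replicate 3 or 5 or blood Treg replicate 5 (0.33, 0.45 and 0.46), and the lung call without lung Treg replicate 5 (0.48). Over the 10 Treg source means, log2 CPM of Itgae and Itgb7 had a Pearson r of -0.18 and a Spearman rho of -0.05, which describes 10 sources that differ in many other ways.

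Itga4 (ENSMUSG00000027009.18, chr2:79255426-79333123, plus strand) encodes the alpha 4 chain, which gives gut-homing α4β7 with beta 7 and VCAM-1-binding α4β1 with beta 1. Its level was close to even. Treg libraries ran from 273 to 301 CPM in kidney, 228 to 460.4 in liver, 273 to 332 in lung, 294 to 368 in pancreas, 208 to 294 in IEL, 257 to 317 in LPL, 311 to 356 in Peyer's patch, 289 to 358 in blood and 277 to 358 in spleen. Lymph node Treg had the lowest mean, at 123, 221 and 141 CPM, and overlapped with IEL Treg. No pair of neighbours in the order of source means was separated by a gap, and the span of source means was 2.24-fold. The tissue comparison gave 0.23 ± 0.11 (adjusted p = 0.121), or 0.92 against lymph node alone (adjusted p = 0.0011), and the 7 single sources and the gut wall against organs gave no call. The test over all 10 sources passed (adjusted p = 0.0107), but was lost without lymph node Treg replicate 10 or 7 (adjusted p = 0.092 and 0.0843). Itga4 shares 1683 exonic bases with Cerkl on the other strand, a gene that averaged 2.31 CPM, and use of strand in counting is not stated. Lymph node Treg replicates 10 and 7 were among the libraries in which long genes had fewer counts, with Spearman correlations of gene length with the gene's deviation of -0.25 and -0.26. With this length trend as an offset in the fit, Itga4 passed as higher in lung Treg than in lymphoid Treg (0.60) and as lower in gut wall than in organ Treg (-0.38).

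Itgb1 (ENSMUSG00000025809.15, chr8:128685654-128733200, plus strand), the common beta 1 chain, had the widest range of the well-expressed members, 20.5 times from the lowest source mean to the highest. It stood at 106, 107 and 113 CPM in IEL Treg, at 114, 85.2 and 105 CPM in LPL Treg and at 180.4, 154 and 165 CPM in Peyer's patch Treg. Liver Treg had 1934, 2353 and 1935 CPM, lung Treg 1684, 2979 and 1375 CPM, pancreas Treg 2100.3, 1865 and 594 CPM and kidney Treg 948, 1091 and 1568 CPM. Lymphoid Treg were also high, with 1018, 1167 and 1201 CPM in lymph node, 1325, 1103 and 883 CPM in blood and 1065, 801 and 915 CPM in spleen. The 9 libraries of IEL, LPL and Peyer's patch, from 85.2 to 180.4 CPM, did not overlap with the 21 of the other sources, from 594 to 2979 CPM. Peyer's patch lay above both gut wall sources, and IEL and LPL overlapped.

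In gut wall Treg, Itgb1 fell against organ Treg by 3.96 ± 0.23 on the log2 scale (adjusted p = 6.1e-12), at 105 ± 10.5 CPM against 1702 ± 650 CPM (SD, n = 6 and 12). Against lymphoid Treg it fell by 3.25 ± 0.30 in IEL, by 3.34 ± 0.30 in LPL and by 2.67 ± 0.29 in Peyer's patch. It rose in liver (0.98 ± 0.23, adjusted p = 0.0327) and lung (0.97 ± 0.23, adjusted p = 0.0080). The liver call was lost in 9 of the fits that left out 1 library, at 0.88 to 1.03, and the lung call without lung Treg replicate 5, at 0.59. Pancreas Treg replicate 6, the library with the most acinar RNA and the lowest Itgb1 of the organs, decided the pancreas value, which was 0.51 ± 0.24 (adjusted p = 0.174) with it and 0.91 (adjusted p = 0.0066) without it. The unweighted tissue comparison gave -0.65 ± 0.15 (adjusted p = 0.0021), a mean over 4 organs with positive values and 2 gut wall sources far below the lymphoid level. With counts summed per source it was 0.19.

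Because beta 7 and beta 1 behaved so differently in the gut, the 250 bases before their RefSeq start sites are shown (GRCm38.p6, the build also known as mm10). RefSeq entries were found for 5 of the 10 members. The Itgb7 window lies on the minus strand at chr15:102231936-102232185 and the Itgb1 window on the plus strand at chr8:128685404-128685653, both printed 5′ to 3′ in the direction of transcription. Capitals mark matches, on either strand, to any of 5 motifs.
Itgb7: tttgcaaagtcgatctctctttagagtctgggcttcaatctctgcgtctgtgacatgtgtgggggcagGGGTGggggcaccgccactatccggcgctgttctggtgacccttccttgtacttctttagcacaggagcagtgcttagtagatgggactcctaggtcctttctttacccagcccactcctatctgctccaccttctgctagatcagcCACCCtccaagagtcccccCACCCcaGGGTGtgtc
Itgb1: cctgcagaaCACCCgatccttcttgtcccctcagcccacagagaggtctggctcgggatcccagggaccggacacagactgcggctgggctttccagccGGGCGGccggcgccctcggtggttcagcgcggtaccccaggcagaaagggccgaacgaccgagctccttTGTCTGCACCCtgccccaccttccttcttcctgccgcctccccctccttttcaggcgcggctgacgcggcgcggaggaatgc
Motifs searched were TGANTCA (AP-1), TGTGGT (RUNX), GGGCGG (SP), CACCC (KLF) and CAGACA (SMAD), and adjoining matches run together. The Itgb7 window held 4 CACCC matches and none of the other motifs. The Itgb1 window held 2 CACCC matches, 1 GGGCGG match and 1 CAGACA match. Of 32817 windows of this length before RefSeq starts, 52.0% held CACCC, 32.7% GGGCGG, 17.1% CAGACA, 14.0% TGTGGT and 6.75% TGANTCA. The capitals describe letters and no binding.

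Read as partners, the beta chains stood in another ratio in the gut, where Itgb1 fell against the mean of lymphoid Treg and Itgb7 gave no call. The ratio of Itgb7 to Itgb1 counts within a library was 14.7 ± 1.1 in IEL Treg, 14.0 ± 3.4 in LPL Treg and 7.82 ± 0.70 in Peyer's patch Treg (SD, n = 3 each). In the other 7 sources the Treg source means lay between 1.08 in lymph node and 2.02 in blood, and no library of these sources reached the lowest gut library. The ratio of Itga4 to Itgb1 was 2.37 ± 0.48 in IEL, 2.96 ± 0.68 in LPL and 1.98 ± 0.29 in Peyer's patch, and source means of 0.142 to 0.354 were found elsewhere. Since Itga4 was close to even, this ratio moved through Itgb1. The ratio of Itgae to Itgb7 was 0.929 ± 0.051 in IEL, 0.583 ± 0.022 in LPL, 0.370 ± 0.017 in Peyer's patch and from 0.0618 in blood to 0.205 in lymph node in the remaining sources. In Treg against Tconv of the same gut sources, Itgb7 over Itgb1 was 14.0 to 16.0 in IEL Treg and 7.06 in IEL Tconv, 10.1 to 16.8 in LPL Treg and 7.66 in LPL Tconv, and 7.10 to 8.49 in Peyer's patch Treg and 9.98 in Peyer's patch Tconv. Lymph node was the other source with a high Tconv ratio, at 0.985 to 1.18 in Treg and 7.48 in Tconv. Ratios are given to compare sources and not chains, since the yield of a 3′ count can differ between genes, and no test was made of them.

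**Figure D2:**
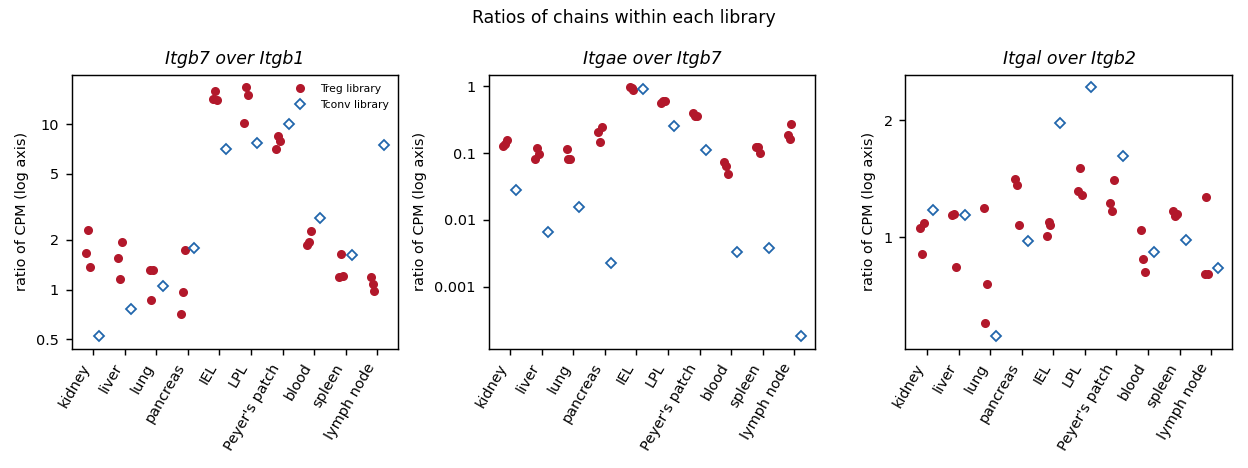
Ratios of normalised counts within each library (log axes) for Itgb7 over Itgb1, Itgae over Itgb7 and Itgal over Itgb2, by source. Red points are Treg libraries and open diamonds the Tconv library. Itgb7 over Itgb1 lies between 7.10 and 16.8 in gut Treg, and Itgal over Itgb2 stays between 0.601 and 1.51 in all Treg libraries.

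LFA-1 is made of the alpha L chain from Itgal (ENSMUSG00000030830.18, chr7:127296260-127335138, plus strand) and the leukocyte beta 2 chain from Itgb2 (ENSMUSG00000000290.13, chr10:77530252-77565708, plus strand), and these partners kept step across sources. Itgal ran from 554 to 671 CPM in LPL Treg, 643 to 740.3 in IEL, 1220.4 to 1613 in Peyer's patch, 1143 to 1259 in kidney, 997 to 1401 in pancreas, 838 to 1154 in liver and 373 to 1017 in lung. Blood had 672 to 897 CPM, spleen 808 to 974 and lymph node 535 to 1163. Itgb2 ran from 422 to 494 CPM in LPL, 599.9 to 678 in IEL, 999 to 1154 in Peyer's patch, 1083 to 1348 in kidney, 929 to 1022 in pancreas, 990.1 to 1016 in liver and 491 to 871 in lung. In blood it ran from 826 to 911 CPM, in spleen from 705 to 835 and in lymph node from 668 to 919.8. Both chains were low in the gut wall and high in Peyer's patch and kidney, and for Itgb2 all 3 LPL libraries lay below every other Treg library but lung replicate 6.

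In gut wall against organ Treg, Itgb2 fell by 0.83 ± 0.11 (adjusted p = 3.8e-06) and Itgal by 0.62 ± 0.17 (adjusted p = 0.0087). Against lymphoid Treg, Itgb2 fell in LPL by 0.83 ± 0.14 and rose in kidney by 0.55 ± 0.13. The kidney call was lost without kidney Treg replicate 3 (0.45). In Peyer's patch the changes were 0.72 ± 0.21 for Itgal and 0.39 ± 0.13 for Itgb2, and neither passed (adjusted p = 0.0525 and 0.106). The tissue comparison gave 0.08 ± 0.13 for Itgal and -0.03 ± 0.08 for Itgb2. The 12 B cell markers summed to 1382 to 1947 CPM in Peyer's patch Treg, 526 to 602 CPM in gut wall Treg, 443 to 1279 CPM in organ Treg and 639 to 1355 CPM in lymphoid Treg, and their part in these values was not tested. Over the 10 source means the chains had a Pearson r of 0.85 and a Spearman rho of 0.87. The ratio of Itgal to Itgb2 was 1.01 to 1.09 in IEL Treg against 1.962 in IEL Tconv, 1.29 to 1.51 in LPL Treg against 2.43 in LPL Tconv and 1.17 to 1.40 in Peyer's patch Treg against 1.61 in Peyer's patch Tconv, so that gut Tconv lay above all gut Treg. Lung Treg replicates 5 and 6, with 523 and 373 CPM of Itgal, were also libraries with fewer counts in long genes (Spearman correlations of -0.20 and -0.32).

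**Figure D3:**
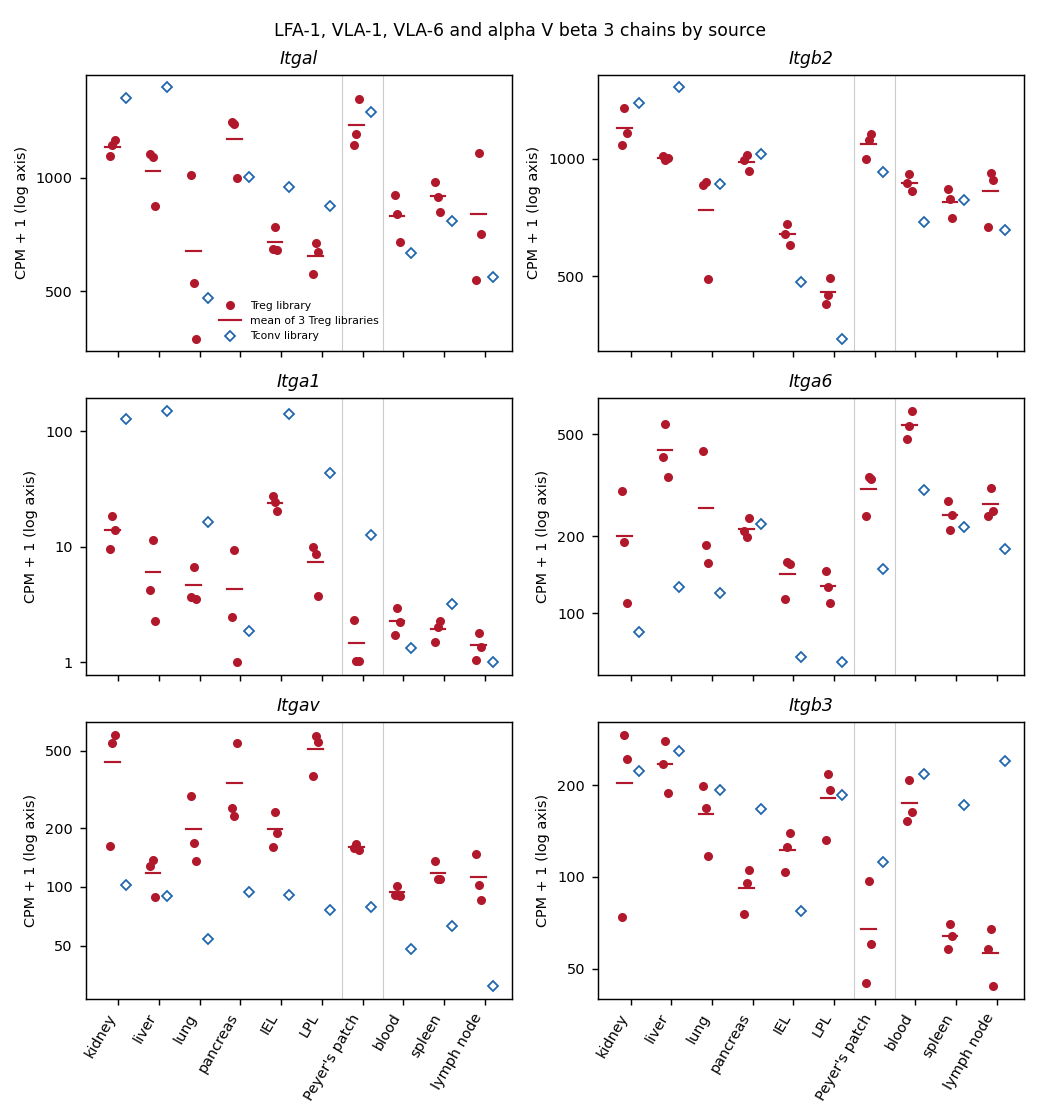
Normalised CPM plus 1 (log axis) of Itgal, Itgb2, Itga1, Itga6, Itgav and Itgb3 in each library by source, with red points for Treg libraries, lines for their means and open diamonds for Tconv. Itga1 is at most 26.7 CPM in every Treg library and at 127, 149 and 139.7 CPM in the Tconv libraries of kidney, liver and IEL.

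Itga1 (ENSMUSG00000042284.10, chr13:114953096-115101964, minus strand) encodes the alpha 1 chain of the collagen receptor VLA-1, a marker of resident T cells, and was low in Treg. It stood at 26.7, 23.5 and 19.3 CPM in IEL Treg, at 8.48, 17.3 and 12.9 CPM in kidney Treg and at 8.91, 7.61 and 2.74 CPM in LPL Treg. Liver, lung and pancreas Treg ran from 0 to 10.5 CPM, and the library at 0, pancreas replicate 6, allows up to 0.202 CPM from counting alone. The 9 lymphoid libraries ran from 0.0467 to 1.95 CPM and the 3 of Peyer's patch from 0.0367 to 1.30 CPM. IEL Treg lay above all other Treg libraries, and gut wall and kidney Treg lay above all lymphoid Treg. The tissue comparison gave 3.15 ± 0.65 (adjusted p = 0.0011), with calls in IEL (4.89 ± 0.83), kidney (4.03 ± 0.82) and LPL (3.06 ± 0.82). Some values are near the level of a few counts, and the tissue value no longer passed against blood or spleen alone (2.43 and 2.90).

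Itga6 (ENSMUSG00000027111.16, chr2:71745616-71858416, plus strand), the alpha 6 chain of a laminin receptor that pairs with beta 1 or beta 4, was highest in blood. It stood at 477, 538 and 617 CPM in blood Treg, at 407, 546 and 341 CPM in liver Treg and at 239.7, 339 and 334 CPM in Peyer's patch Treg. The 6 gut wall libraries ran from 108 to 158 CPM. Lung Treg, at 429, 184 and 156 CPM, and kidney Treg, at 299, 188 and 109 CPM, each spread widely between libraries. Itga6 fell in tissue Treg by 0.63 ± 0.15 (adjusted p = 0.0046), in IEL by 1.19 ± 0.28 and in LPL by 1.34 ± 0.28. The tissue value shrank to -0.20 against spleen alone and -0.32 against lymph node alone, with neither passing, since blood is the highest source. Itga6 and Itgb3 are also platelet integrin chains. The 10 platelet markers, led by Nrgn, Ppbp and Pf4, summed to 7.84 to 90.4 CPM in blood Treg, against 0.593 to 3.45 CPM in spleen and lymph node Treg, with 1 of the 10 at 0 in all blood Treg libraries, and their part in the blood values was not tested. Blood Treg replicate 4, with the most platelet RNA, had the middle value of Itga6, 538 CPM, and the highest of Itgb3, 207 CPM, of the 3 blood Treg libraries.

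Itgav (ENSMUSG00000027087.11, chr2:83724397-83806916, plus strand) encodes the alpha V chain, which pairs with beta 1, beta 3, beta 5, beta 6 or beta 8. It stood at 369, 596 and 555 CPM in LPL Treg, at 162, 544 and 603 CPM in kidney Treg, at 252, 229 and 545 CPM in pancreas Treg and at 290.4, 167 and 134 CPM in lung Treg. IEL Treg had 159.6, 241 and 189 CPM, Peyer's patch Treg 158, 166 and 153 CPM and liver Treg 127, 137 and 88.1 CPM. Lymphoid Treg ran from 84.8 to 147 CPM with a median of 101 CPM. LPL, IEL, pancreas, kidney and Peyer's patch lay above every lymphoid library, and lung and liver overlapped with them. Itgav rose in tissue Treg by 1.33 ± 0.20 (adjusted p = 3.0e-05), in LPL by 2.27 ± 0.27, in kidney by 2.03 ± 0.28, in pancreas by 1.69 ± 0.28, in lung by 0.93 ± 0.29 and in IEL by 0.90 ± 0.29. The lung call was lost without lung Treg replicate 1 (0.50) and in other fits, and the IEL call without IEL Treg replicate 2 or 3 (0.72 and 0.95) or lymph node Treg replicate 7 (0.83). Liver gave 0.14 ± 0.30. Itgav shares 634 exonic bases with Gm13684 on the other strand, a predicted gene that averaged 4.30 CPM.

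Itgb3 (ENSMUSG00000020689.4, chr11:104608000-104670476, plus strand), the beta 3 partner of alpha V in a vitronectin receptor, was higher in most tissues and in blood. Liver Treg had 235, 279 and 188 CPM, kidney Treg 73.1, 293 and 243 CPM, LPL Treg 131, 217 and 193 CPM, lung Treg 197, 168 and 116 CPM and IEL Treg 103, 124 and 138 CPM. Blood Treg had 152, 207 and 163 CPM, against 57.2, 68.9 and 62.8 CPM in spleen Treg and 57.1, 66.2 and 42.8 CPM in lymph node Treg. Pancreas Treg had 74.6, 94.6 and 104 CPM and Peyer's patch Treg 43.9, 95.6 and 59.2 CPM. Itgb3 rose in tissue Treg by 0.91 ± 0.17 (adjusted p = 5.2e-04), in liver by 1.46 ± 0.25, in kidney by 1.26 ± 0.26, in LPL by 1.12 ± 0.26 and in lung by 0.96 ± 0.26. Against blood alone no Itgb3 call remained, at -0.12 in tissue, 0.43 in liver, 0.23 in kidney, 0.08 in LPL and -0.074 in lung. The lung call was lost without lung Treg replicate 1 or 5 (0.75 and 0.94). Kidney Treg replicate 1, the library with the most tubule RNA, had the lowest Itgav and Itgb3 and the highest Itga6 of the kidney libraries. Over source means, Itgav had a Pearson r of 0.28 with Itgb3 and of 0.87 with Itgb8.

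Source by source, the members differed in direction, as the map of fold changes shows. Against lymphoid Treg, kidney gave 6 calls of 10, all higher, where 16.4% of all genes were called, 12.2% higher and 4.26% lower. Liver gave 4, all higher, where 1.12% of all genes were called, 0.955% higher and 0.162% lower. Lung gave 4, all higher (11.5% of all genes, 8.64% higher and 2.85% lower), and pancreas 2, both higher (9.95%, with 7.64% higher and 2.31% lower). IEL gave 3 higher and 2 lower (21.2% of all genes, 13.5% higher and 7.77% lower). LPL gave 4 higher and 3 lower (27.1% of all genes, 17.4% higher and 9.70% lower). Peyer's patch gave 1 higher and 1 lower (3.57% of all genes, 2.94% higher and 112 genes lower). In this fit the members' share was above that of all genes in each of these 7 sources, from 2 of 10 in pancreas and Peyer's patch to 7 of 10 in LPL. The pancreas count ran from 1 to 4 with a library left out, and against blood alone liver gave 0 and lung 1. All genes were not matched to the members for level, and the members were chosen with earlier results of these data known. The shares are thus no test of whether integrin genes are called more often than other genes. All 10 members passed the test over the 10 sources (34.5% of all genes). The comparisons share the same lymphoid libraries. Itgb1 and Itgb2 were the members with calls in both directions, higher in an organ and lower in the gut.

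**Figure D4:**
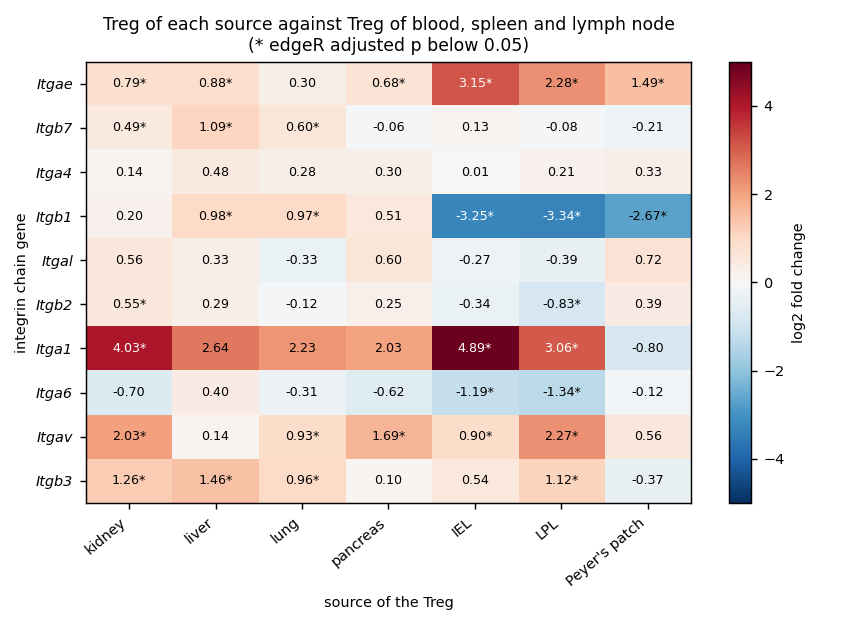
Log2 fold changes (colour and printed value) of the 10 integrin chain genes, in rows, for Treg of 7 sources, in columns, against Treg of blood, spleen and lymph node. An asterisk marks an edgeR adjusted p below 0.05. Itgb1 is -3.25 in IEL, -3.34 in LPL and -2.67 in Peyer's patch, and Itgae is positive in all 7 columns.

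In gut wall against organ Treg, 1 member rose and 5 fell (23.6% of all genes, 13.0% higher and 10.6% lower), with a median log2 fold change of -0.35 against 0.06 over all genes tested. Itgae rose, Itgb1, Itgb2, Itgal and Itgb7 fell as given above, and Itga6 fell by 0.95 ± 0.20. Between IEL and LPL Treg, edgeR called none of the 10 members (0.0447% of all genes, 0.0112% higher and 0.0335% lower, 8 genes), while 3 members had an unadjusted p below 0.05. DESeq2 called 2 members, Itgae and Itgav, and 188 of all genes, and limma-voom with quality weights called 4 members and 1059 genes. Itgae was higher in IEL than in LPL in all libraries (log2 fold change 0.87 ± 0.25, unadjusted p = 0.0016) and Itgav lower in all libraries (-1.37 ± 0.37, unadjusted p = 0.0012). Intestinal epithelial markers summed to 74.2 to 1079 CPM in IEL Treg and 91.2 to 2563 CPM in LPL Treg.

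Treg were then set against Tconv of the same sources. Over all sources Itgae had the largest log2 difference of the members, though not in the gut wall, where that of Itgav was larger. Itga1 was lower in gut wall Treg, at 0.166 of the Tconv level in IEL and 0.151 in LPL, without a call there. Itgae stood at 1379 to 1623 CPM in IEL Treg, against 825 CPM in IEL Tconv. LPL Treg had 647 to 937 CPM against 241 CPM in LPL Tconv, and Peyer's patch Treg 468 to 499 CPM against 89.4 CPM in Peyer's patch Tconv. Kidney and lung Tconv had 31.8 and 25.4 CPM, and liver, spleen, blood, pancreas and lymph node Tconv had 6.57, 4.50, 4.03, 3.07 and 0.214 CPM. Tconv therefore kept the order of the 3 gut sources but were lower than all 3 Treg libraries in 10 of 10 sources. Over all sources Itgae rose in Treg by 3.40 ± 0.48 (adjusted p = 3.0e-06). The difference was 6.74 ± 0.32 in lymphoid sources, 4.56 ± 0.23 in organs and 1.30 ± 0.26 in the gut wall. The lymphoid value includes lymph node Tconv, whose 0.214 CPM rests on few counts, since 3 counts there are 0.160 CPM. Each Tconv group rests on 1 library per source, whose spread was taken from the Treg libraries, and the gut wall call was lost without LPL Tconv (0.85, adjusted p = 0.663).

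The sorted Tconv of the gut wall also had more RNA of genes listed as markers of other T cells. Markers of CD8 and gamma delta T cells summed to 18.3 to 77.3 CPM in gut wall Treg, against 710.5 CPM in IEL Tconv and 320.1 CPM in LPL Tconv. In liver they summed to 45.8 to 59.96 CPM in Treg, against 411 CPM in Tconv. Organ Tconv had at most 3.12 CPM of Cd8a, 57.9 CPM of Cd8b1 and 21.4 CPM of Trdc. Most of the liver sum therefore came from the gamma chain constant genes of the list. Cd8a had 2.65 to 39.2 CPM in gut wall Treg, against 44.8 and 163 CPM in the gut wall Tconv libraries. Cd8b1 had 5.35 to 17.2 CPM against 84.1 and 126 CPM, and Trdc 0.958 to 6.07 CPM against 5.61 and 12.8 CPM. In lymphoid Treg, Trdc ran from 5.51 to 13.3 CPM. CD8 T cells of the epithelium are known for Itgae, and the part of such cells in the Tconv values was not tested. The 7 Treg markers, some of which activated Tconv also use, summed to 704.6 and 1249.9 CPM in the gut wall Tconv, with Foxp3 at 0.158 and 0.635 CPM.

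Over all sources, 5 members passed as higher in Treg and 2 as lower, where 14.9% of 17924 genes were called (8.17% higher and 6.73% lower), and the median log2 fold change was 0.39 against -0.01 over all genes tested. Itgav rose by 1.40 ± 0.20 (adjusted p = 4.0e-06), with all 3 Treg libraries above the Tconv library in 9 of 10 sources. In lymph node Itgav had 147, 101 and 84.8 CPM in Treg and 29.97 CPM in Tconv. Itga6 rose by 0.82 ± 0.16 and Itgb7 by 0.55 ± 0.11, each with all Treg libraries above Tconv in 8 of 10 sources. Itga4 rose by 0.34 ± 0.10 (adjusted p = 0.0205), a call that was lost without the Tconv library of IEL, LPL, Peyer's patch or pancreas (0.30 to 0.31). Itgb1 did not pass (0.45 ± 0.21, adjusted p = 0.162), but did without kidney Tconv (0.63), where it stood at 948 to 1568 CPM in kidney Treg and 2165.7 CPM in kidney Tconv. Itgal and Itgb2 gave -0.09 ± 0.13 and 0.02 ± 0.09, with sources in both directions. For Itgal all Treg libraries lay above Tconv in 2 of 10 sources and below in 4. For Itgb2 they lay above in 5 and below in 3.

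Itga1 and Itgb3 fell in Treg. Itga1 was lower by 2.54 ± 0.57 (adjusted p = 0.0018), with all Treg libraries below Tconv in 7 of 10 sources. Liver Treg had 1.29 to 10.5 CPM against 149 CPM in liver Tconv, IEL Treg 19.3 to 26.7 CPM against 139.7 CPM in IEL Tconv, and kidney Treg 8.48 to 17.3 CPM against 127 CPM in kidney Tconv. Liver and IEL Tconv also had the most CD8 and gamma delta T cell RNA, whose part in these values was not tested. Lymph node Tconv had 0 counts, which allows up to 0.160 CPM. Itgb3 was lower by 0.65 ± 0.18 (adjusted p = 0.0131), and this rested on the lymphoid sources, where it fell by 1.29 ± 0.26. Lymph node had 42.8 to 66.2 CPM in Treg and 240.1 CPM in Tconv, and spleen 57.2 to 68.9 CPM in Treg and 172 CPM in Tconv. The Itgb3 call was lost without lymph node Tconv (-0.43) or spleen Tconv (-0.54).

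**Figure D5:**
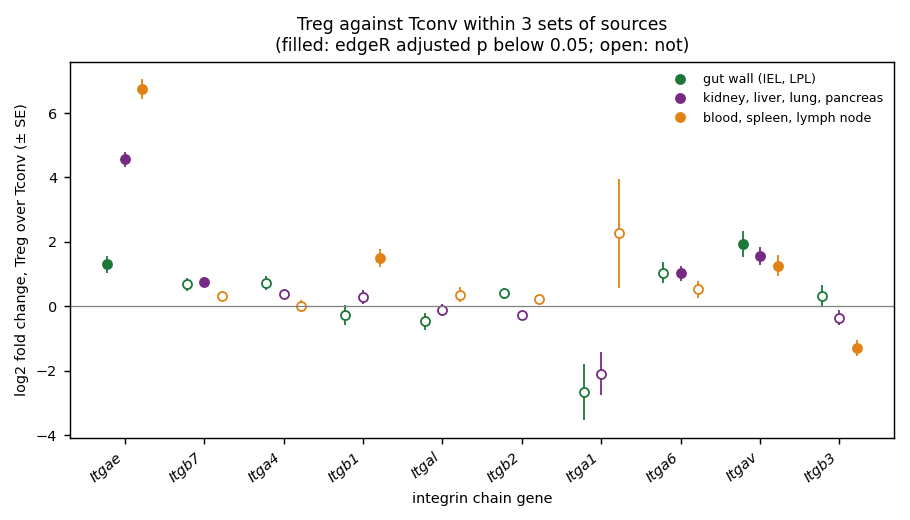
Log2 fold change of Treg over Tconv (points, with SE as bars) for the 10 integrin chain genes within the gut wall (green), organs (purple) and lymphoid sources (orange), filled where the edgeR adjusted p is below 0.05. Itgae stands at 1.30 in the gut wall, 4.56 in organs and 6.74 in lymphoid sources, while Itgav lies between 1.27 and 1.94 in all 3.

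Within sets of sources, the gut wall gave 2 calls of 10 (1.71% of 22976 genes, 230 genes higher and 0.709% lower), Itgae and Itgav (1.94 ± 0.41), and the Itgav call was also lost without LPL Tconv (1.13). Organs gave 4 (5.81%, with 4.40% higher and 1.41% lower), Itgae, Itgav (1.57 ± 0.28), Itga6 (1.02 ± 0.23) and Itgb7 (0.77 ± 0.14), of which Itga6 and Itgb7 were lost without liver Tconv (0.77 and 0.47). Lymphoid sources gave 3 higher and 1 lower (5.24%, with 3.77% higher and 1.47% lower), with Itgae, Itgb1 (1.5 ± 0.27) and Itgav (1.27 ± 0.32) higher and Itgb3 lower. Lymph node Tconv had 156 CPM of Itgb1, against 1018 to 1201 CPM in lymph node Treg, and without that library the lymphoid values of Itgb1, Itgav and Itgb3 were 0.82, 0.96 and -0.88, with no call.

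Whether tissue changed the chains differently in Treg and Tconv was tested directly. Of the 10 members, 2 passed, both negative (0.884% of all genes, 0.235% positive and 0.649% negative). The tissue effect of Itgae was smaller in Treg than in Tconv by 3.27 ± 0.30 on the log2 scale (adjusted p = 1.4e-07), with 96.2 to 319 CPM in lymphoid Treg and 0.214 to 4.50 CPM in lymphoid Tconv. That of Itgb1 was -1.38 ± 0.31 (adjusted p = 0.0249). It lost its call without lymph node, kidney, lung, liver or blood Tconv (-0.76, -1.02, -1.11, -1.17 and -1.52), and limma-voom with quality weights called neither gene (adjusted p = 0.0937 and 0.0537). In Tconv alone, 6 tissue against 3 lymphoid libraries gave no call by edgeR for any member or any of 14453 genes (0%), although 4 members and 2119 genes had an unadjusted p below 0.05. DESeq2 called 3 members, Itgae, Itga1 and Itgav, and 1085 genes, and limma-voom with quality weights 2 members, Itga6 and Itgav, and 1369 genes. In these Tconv fits the source is the replicate. Treg counts summed per source, tested by edgeR in the same way, also gave 0 members and 0 of 18000 genes. The missing Tconv calls thus do not set Tconv apart from Treg. Itgb1 was low in gut Tconv as in gut Treg, at 130.2, 122 and 80.5 CPM in IEL, LPL and Peyer's patch Tconv, against 449 to 2165.7 CPM in 6 of the other 7 Tconv libraries and 156 CPM in lymph node.

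Of the 16 other integrin chains in the mouse, 11 reached a mean of 1 CPM over the 40 libraries. Itgb8, the TGF-beta-activating partner of alpha V, had 85.2, 128 and 159 CPM in LPL Treg, 50.7, 96.1 and 131 in kidney Treg and 69.8, 59.5 and 121 in pancreas Treg. IEL Treg had 48.2 to 61.2 CPM, Peyer's patch Treg 25.0 to 82.0, lung Treg 23.6 to 43.0 and liver Treg 16.6 to 19.3 CPM. Among lymphoid Treg, spleen had 34.6 to 53.7 CPM and lymph node 24.2 to 49.1 CPM, all above liver, and blood had 9.67, 7.55 and 11.1 CPM. Tconv had 0.0534 to 11.7 CPM with a median of 2.09 CPM. All 3 Treg libraries lay above Tconv in 10 of 10 sources, and Itgb8 rose in Treg by 4.24 ± 0.43 (adjusted p = 6.0e-09) and in tissue Treg by 1.2 ± 0.20. The lymphoid side of the tissue value holds blood, with a Treg mean of 9.44 CPM, against 42.8 CPM in spleen and 37.6 CPM in lymph node. The means of liver (18.2 CPM) and lung (32.8 CPM) lay below those of spleen and lymph node. Itgb8 was not read against single lymphoid sources. Itgb5, another alpha V partner, rose in tissue Treg by 1.78 ± 0.40 and in Treg against Tconv by 1.86 ± 0.48. The beta 1 partners Itga3 and Itga2 rose in tissue Treg by 1.52 ± 0.27 and 1.36 ± 0.37, while Itga5 (-0.07 ± 0.39), Itga7 (-0.04 ± 0.46) and Itga9 (0.16 ± 0.64) did not pass. In all, 4 of 14 tested rose in tissue Treg and 0 fell, where 21.8% of all genes were called. Itgax, a myeloid and dendritic chain, passed as lower in Treg, at 0 to 34.5 CPM with a median of 0 in Treg and 0 to 33.8 CPM with a median of 6.43 in Tconv. Itga2b, the platelet partner of beta 3, had 7.90 to 19.5 CPM in blood Treg and 11.1 CPM in blood Tconv, and at most 1.61 CPM in any library of another source. Itgb4 averaged 1.11 CPM over all libraries, and Itgad was at the minimum of 1 CPM.

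Among 34 adaptors that link integrins to the cytoskeleton or switch them on, 8 rose and 2 fell in tissue Treg (21.8% of all genes were called, 11.9% higher and 9.98% lower). Dok1 (0.79 ± 0.14), a negative regulator of integrin activation, the kinase gene Ptk2b (0.65 ± 0.14), Skap2 (0.77 ± 0.17) and Dok2 (0.48 ± 0.12) had the smallest p. In gut wall against organ Treg, 5 rose and 2 fell (23.6% of all genes were called), with Dok1 at 1.85 ± 0.16 and Ptk2b at 0.75 ± 0.16, and with Flna, encoding the actin crosslinker filamin A, at -1.66 ± 0.20 and Rasgrp2, an activator of Rap1, at -0.83 ± 0.19. In Treg against Tconv, 3 rose and 3 fell (14.9% of all genes were called), among them Fermt3 (0.35 ± 0.07), encoding the integrin-activating kindlin of leukocytes, and Lims1 (-0.42 ± 0.08). Of 17 tested ligand genes, 7 rose and 1 fell in tissue Treg (11.9% of all genes rose and 9.98% fell). Icam1 (1.66 ± 0.17), the LFA-1 ligand, the laminin chain gene Lamc1 (2.17 ± 0.28) and Tgfb1 (0.65 ± 0.13) rose, and Icam2 (-0.82 ± 0.12) fell. Epithelial and myeloid RNA was present in several tissue libraries, as given above, and its part in the ligand counts was not tested.

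The genes whose Treg source means most resembled each member, by Pearson r of log2(CPM + 1) over 10 sources and 9503 genes, were taken from the top 3. For Itgae they were Xpr1 (0.96), Dapk2 (0.96) and Rundc3b (0.94), for Itgb1 Selenoh (0.96), AB124611 (0.95) and Ass1 (0.95), and for Itga6 Sbk1 (0.98), Lef1 (0.98) and Ampd3 (0.98). For Itgav they were Kdm2b (0.98), Areg (0.97) and Tnfrsf10b (0.97), for Itgb2 Cd3g (0.94) and Rac2 (0.91), and for Itgal Larp1b (0.91), Xrcc1 (0.89) and Cdk5rap3 (0.88). Itgb7 was nearest to Tmod3 (0.95), Esyt1 (0.92) and Rab27a (0.91), Itga4 to Rtel1 (0.92), Crtc3 (0.92) and Ripor1 (0.91), Itga1 to Usp20 (0.96), Car2 (0.94) and Sord (0.93), and Itgb3 to Tcp11l2 (0.91), Rab27a (0.91) and Map3k2 (0.89). An r of at least 0.9 was reached by 140 genes for Itgav, 70 for Itga6, 62 for Itgae and 43 for Itgb1, and by 1 to 7 for each of the other members.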

How the data were processed

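RNA was measured by 3′ end sequencing (Lexogen QuantSeq, per the labels) in 30 Treg and 10 Tconv libraries. The authors deposited a table of raw read counts per gene, made with Trim Galore, STAR and featureCounts on mm10, per the submitters' processing notes; annotation release and strand of counting are not given in the sources used here. Versions of these tools are not given either. All 40 columns were mapped to samples by their labels.

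From the counts, library totals of 12197980 to 28823493 were scaled by TMM, and CPM computed. Tests used edgeR 4.0.16 (R 4.3.3): filterByExpr, trended dispersion, robust quasi-likelihood F test, Benjamini-Hochberg adjustment over all genes tested, calls at adjusted p below 0.05. SE is the log2 fold change divided by the square root of F. Comparisons among Treg used the mean per source of the 30 Treg libraries, with equal weight per source. Treg against Tconv over all sources used 40 libraries with source as a term. Comparisons within sets of sources and of tissue effects used a mean per source and cell type, where spread comes from Treg. Tconv alone were tested as 6 tissue against 3 lymphoid libraries. Where a library was left out of the fits of 40, the dispersion trend of the full fit was kept. The fits were tested on simulated counts.

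Alternatives were DESeq2 1.42.0, its size factors, limma-voom with sample quality weights (limma 3.58.1), no filter on low counts, a gene length offset, removal of other-cell markers, single lymphoid references, counts summed per source, a replicate block, and leaving out each library. Floors of 3 counts cover counting error only. The members and lists were chosen with earlier results of these data known. All 10 members are named, with other integrin chains averaging at least 1 CPM, up to 4 adaptors and ligands with the smallest p per comparison, the 3 highest genes of a marker list, and the 3 genes most like each member, of which 1 is not reported here.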

Additional observations from a re-analysis of the deposited data

Results flagged for a closer look

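Itgae in IEL Tconv, at 825 CPM, stood far from the other Tconv libraries, both among all 10 and among the 6 of tissues, where the next highest was LPL Tconv at 241 CPM. IEL Tconv was also the library with the most CD8 and gamma delta T cell markers, at 710.5 CPM, and their part in the value was not tested. Itgb1 in LPL Treg replicate 2, at 85.2 CPM, stood below the other 5 gut wall Treg libraries, of which the lowest had 105 CPM. In all, 50 groups were examined for such libraries. The nominal rate of the rule is about 1 group in 20, but it may not hold here, since the groups mix sources and some share libraries. The tissue effect differed between Treg and Tconv for Itgae by -3.27 and for Itgb1 by -1.38 on the log2 scale, by the test of the difference itself.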

How the results depend on the processing

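Of 1390 member results under other settings, 1246 kept their direction and call, and of 5390 with a library left out, 5297 did. A sign change where neither fit made a call was counted as kept. Many of the libraries left out were not in the groups compared, so the tally says little about single calls. Counts of members called, against those in the report, moved as follows. Against blood alone they were 4 in tissue, 3 in kidney, 0 in liver, 1 in lung, 4 in pancreas and 4 in Peyer's patch. Against spleen alone they were 4 in tissue, 1 in pancreas and 3 in IEL. With counts summed per source, tissue gave 0, as it did over all genes. limma-voom with quality weights gave 8 in liver, 2 in lung, 6 in pancreas, 4 in Peyer's patch, 4 for IEL against LPL, 6 for Treg against Tconv in the gut wall, 1 for the difference in tissue effect (Itgb3) and 2 in Tconv. DESeq2 gave 4 in Peyer's patch, 2 for IEL against LPL, 5 for Treg against Tconv in the gut wall, 4 for the difference in tissue effect and 3 in Tconv. Counts over all genes moved too: in liver from 200 in the report's fit to 1412 with limma-voom and 19 against blood alone, and in pancreas from 1782 to 4778 with limma-voom and 369 against spleen alone.

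Among member results with a call in either fit, 5 changed sign. Against blood alone these were Itgb7 in tissue (-0.20) and kidney (-0.072) and Itgb3 in tissue (-0.12) and lung (-0.074), blood being high in both genes. With summed counts it was Itgb1 in tissue (0.19), where the cause was not tested.

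Leaving out 1 library at a time, the counts ran from 7 to 8 in tissue, 9 to 10 over all sources, 3 to 8 in kidney, 2 to 5 in liver, 1 to 5 in lung, 1 to 4 in pancreas, 4 to 6 in IEL, 7 to 7 in LPL, 2 to 4 in Peyer's patch, 0 to 0 for IEL against LPL and 6 to 7 for gut wall against organs. For Treg against Tconv they ran from 6 to 8 over all sources, 0 to 3 in the gut wall, 2 to 5 in organs and 1 to 4 in lymphoid sources, from 1 to 3 for the difference in tissue effect and from 0 to 1 in Tconv.

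No pairing by replicate number was seen: the median correlation of deviations was -0.02 over 58 same-numbered pairs and 0.0022 over 347 others. With 3 libraries per source this cannot show whether same-numbered libraries share a mouse. With the replicate block the counts were 2 in kidney, 1 in liver and, over the 6 possible pairs, 3 for Treg against Tconv. Limits of depth concern Itga1, whose lymphoid values rest on few counts, and Itgae in lymph node Tconv, at 0.214 CPM where 3 counts are 0.160 CPM. That library enters the lymphoid difference and the difference in tissue effect of Itgae. Having 1 Tconv library per source limits every comparison with Tconv.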
